A study of Mus musculus with 15 samples.

Results

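The keratin genes of mammary and other epithelia were followed through mouse mammary tumors: Krt5, Krt14, Krt15 and Krt17 of the basal layer, Krt6a of stressed and wounded epithelium, and Krt7, Krt8, Krt18, Krt19 and Krt23 of luminal and other simple epithelia. They were taken by symbol and are 10 of the 54 keratin genes and of the 51826 genes in the tables. RNA was sequenced in 15 libraries of 13 mice, all of strain FVB per the labels, and the values are TPM, a level of transcripts scaled for transcript length and for the library total. The control group was 4 mammary glands of Cre control mice (mice 133, 392, 417_3 and 517_3), which carried MMTV-Cre alone. The Trim24COE group (label genotype TRIM24 overexpression) was 6 tumors of mice that carried MMTV-Cre together with a Trim24 transgene, opened by Cre in mammary epithelium, from a single integration. By the subtype label 3 were Carcinosarcoma (mice 64, 567 and 897) and 3 were Carcinoma (mice 89, 273_5 and 3956). The study's records give 89 and 3956 as carcinosarcoma by one pathologist and carcinoma by the other, and 567 as spindle cell carcinoma by one of them. They also list a class called from the RNA for tumors other than 3956, so the classes compared here may not be independent of the RNA. The third group was 3 Carcinoma samples labelled Non-TRIM24 (mice 219, FVB001 and FVB002), which arose spontaneously in mice of unknown genotype. The paper gives the strain of these mice as either FVB or a mixed background of FVB with another strain, beside the FVB of the labels. A strain difference thus cannot be told apart from the group in comparisons with these tumors. Cre and its MMTV promoter, active in mammary epithelium, were thus shared by controls and Trim24COE mice, which were virgin females per the methods. Mouse ages were not given in the labels. The study's records give the ages of the 6 Trim24COE tumor mice, which differed by months within both tumor classes, and the paper calls the control glands age-matched. Age was not used in the fits. The first 10 libraries formed sequencing batch 1, and the non-TRIM24 tumors, with repeat libraries of gland 133 and tumor 3956, formed batch 2. Nothing in the labels says that more than 1 sample was taken from a mouse other than these repeats, so the mouse was the replicate.

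Keratins are the intermediate filament proteins of epithelial cells. A filament is built from pairs of a type I (acidic) and a type II (basic) keratin, so epithelia make both, in partner pairs that depend on the layer: KRT5 with KRT14 in basal and myoepithelial cells, and KRT8 with KRT18 in luminal cells. KRT6A and KRT17 are induced in wounded or stressed epithelium, KRT15 marks basal cells of stratified epithelia and hair follicles, KRT19 has the shortest tail of the type I keratins, and KRT7 and KRT23 are keratins of simple epithelia. Carcinosarcoma, also called metaplastic carcinoma, has carcinoma-like and sarcoma-like parts, and loss of epithelial features is common in it.

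On GRCm38 (GENCODE M21) the genes lie in the keratin clusters of chromosomes 11 and 15. Krt23 (11:99477974-99493137), Krt15 (11:100131758-100135928), Krt19 (11:100140810-100148665), Krt14 (11:100203162-100207548) and Krt17 (11:100256217-100261029) are type I genes on the minus strand. The type II genes are Krt7 (15:101411043-101430313, plus strand), Krt6a (15:101689910-101694307), Krt5 (15:101707070-101712898) and Krt8 (15:101996698-102004482), the last 3 on the minus strand. Krt18 (15:102028180-102032027, plus strand) is the only type I gene among these on chromosome 15 and is the neighbour of its partner Krt8, facing away from it.

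RefSeq promoters (GRCm38.p6, 250 bases before the start) were searched for 5 of the 10 genes, Krt5, Krt7, Krt14, Krt18 and Krt23. CACCTG, the E-box that Snail and Zeb repressors of epithelial genes bind, was searched on both strands (it reads CAGGTG on the other strand) and was present in 4 of these 5 windows and in 17.2% of 32851 promoters of the same length. The entries for Krt14 and Krt7 lie inside the gene spans of GENCODE, and that of Krt14 held none. The 4 matches are shown in capitals with 12 bases on each side, 5′ to 3′ on the strand of the gene, because they are the sequence these keratins share in this window.
Krt5, minus strand, chr15:101713016-101713045, before the gene: cacaccactgtgCAGGTGtgctgggtgagc
Krt18, plus strand, chr15:102027990-102028019, before the gene: aggggctaacacCACCTGctatcctttgtg
Krt23, minus strand, chr11:99493335-99493364, before the gene: agatctgctaccCACCTGgtggcctgggcc
Krt7, plus strand, chr15:101412347-101412376, in an exon of a non-coding GENCODE transcript: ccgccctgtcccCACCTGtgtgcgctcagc
The match starts 128 bases before the RefSeq start in Krt5, 214 in Krt18, 232 in Krt23 and 44 in Krt7. Other motifs were also searched on both strands. TGANTCA, which AP-1 factors bind, was found in 0 of the 5 windows and in 6.75% of all promoters. The string TATAAA was found in 0 of the 5 windows and in 12.4% of all promoters. The string GGGCGG was found with 4 matches in Krt7 alone of the 5, and in 32.7% of all promoters. A match is a string of letters and no measure of binding.

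Libraries differed in ways that bear on keratin levels. Among the control glands, 133 and 392 had a summed level of 28332 to 39126 TPM over 12 adipocyte markers and 417_3 and 517_3 had 1849 to 2042. The fat-poor pair also had more epithelial RNA (8 markers, 2444 to 2543 TPM against 639 to 824) and myoepithelial RNA (7 markers, 3120 to 3125 TPM against 333 to 434). Its hair follicle RNA was higher too (11 markers, 31.6 to 32.5 TPM against 1.07 to 1.26). The same sum was 50.9 TPM in carcinoma 3956, nearly all of it Krt27, 17.1 TPM in carcinoma 89, nearly all of it Padi3, and at most 2.12 TPM in the first libraries of all other tumors. The epithelial markers summed to 1226 to 2416 TPM in Trim24COE carcinomas and to 12.5, 49.2 and 133 TPM in carcinosarcomas 897, 64 and 567. All 8 were detected above 1 TPM in some library of each group. In bulk tissue fewer epithelial cells and less RNA per cell cannot be told apart. Skin epidermis markers (10 genes) summed to 9.41 to 54.2 TPM in 11 libraries, to 131 to 264 TPM in non-TRIM24 tumors and to 1132 TPM in carcinoma 89, whose largest part was Krtdap at 878 TPM. Trim24 RNA, which includes the endogenous gene, was 10.6 to 24.1 TPM in Trim24COE tumors and 14.5 to 22.4 TPM in glands, so it did not separate the groups (limma, log2 difference -0.24 ± 0.26 SE, adjusted p = 0.56). By qRT-PCR the paper reports more Trim24 RNA in Trim24COE tumors than in control glands, and it states that its RNA-seq predicted this. The TPM here do not show that difference, and the paper's count-based test was not rerun. More TRIM24 protein in these tumors is reported from tissue staining. Gene calls also lean on shared sequence: of the 50-base stretches in the longest transcript, 45.5% in Krt6a (shared with Krt6b, Gm5478 and Krt5), 26.9% in Krt8 (with the pseudogene Krt8-ps), 14.4% in Krt14, 8.52% in Krt5 and 3.99% in Krt17 occur in another gene, against 0 in Krt7, Krt19 and Krt23.

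The 3 non-TRIM24 tumors held most of the keratins in similar proportions at different levels. Relative to tumor 219, the 10 genes stood at 0.482 to 0.637 in FVB002 (median 0.523) and at 0.0528 to 0.297 in FVB001 (median 0.0774), where Krt19 was the gene at the upper end. The 103 genes at least 10-fold above the glands in tumor 219 stood at a median of 0.619 in FVB002 and 0.0848 in FVB001. These genes were chosen by their level in 219, which favors low ratios to it, so they are no independent measure beside the keratins. Adipocyte markers summed to 248, 28142 and 55641 TPM in 219, FVB002 and FVB001. The part of fat and of tumor RNA in these ratios was not tested. Whether the 3 tumors are independent was not tested either, and the p-values below treat them as 3 replicates.

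**Figure D1:**
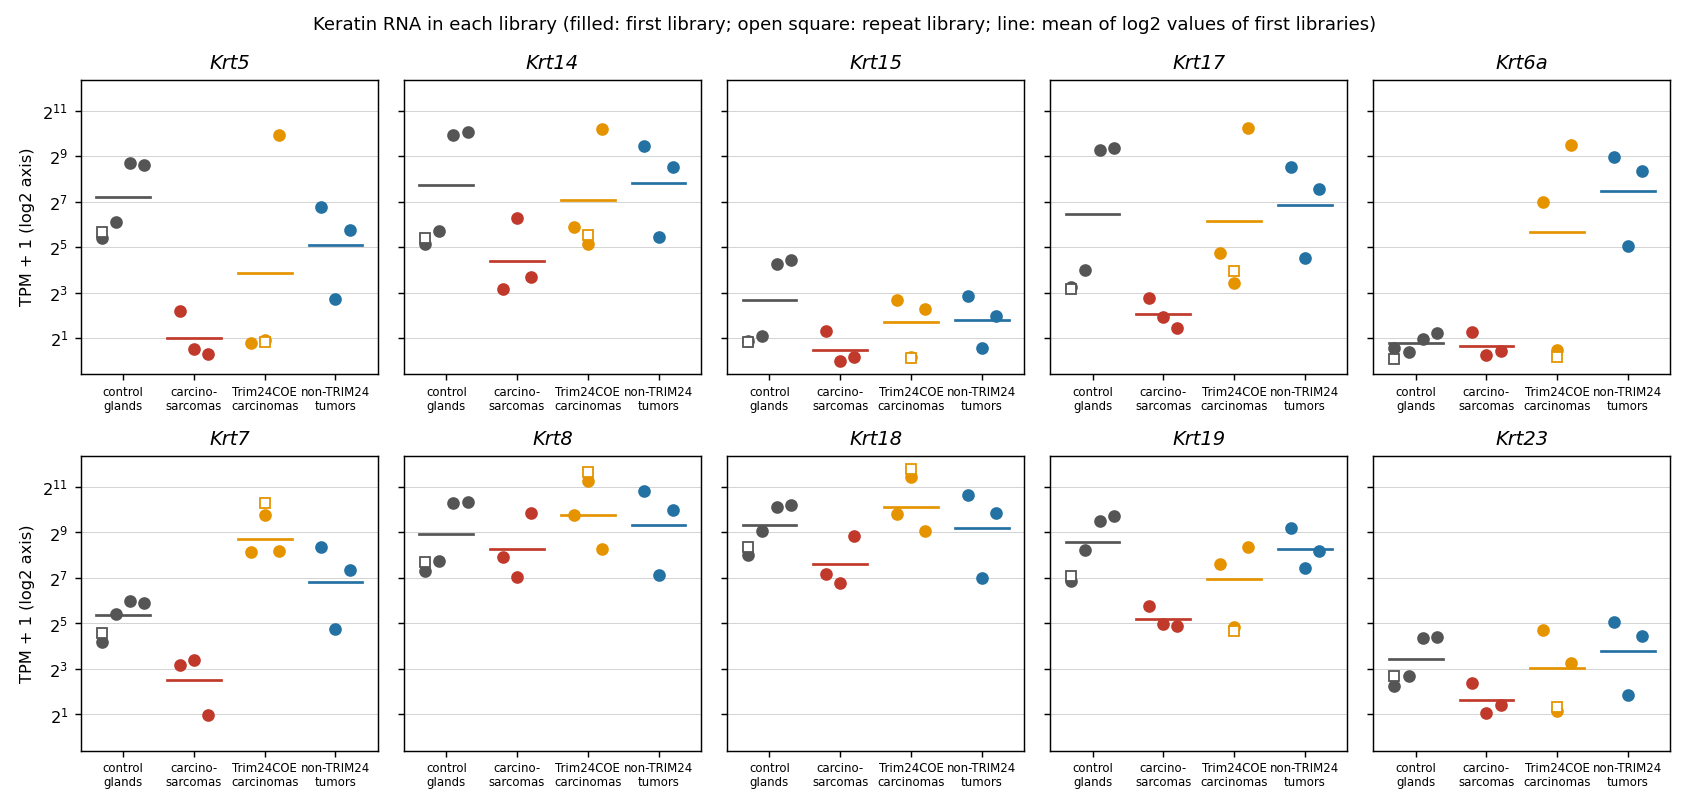
Level of each keratin in every library as TPM + 1 on a log2 axis, by group. Filled points are first libraries, open squares the repeat libraries of gland 133 and tumor 3956, and lines the means of the log2 values of first libraries. Krt7 is the gene whose carcinosarcomas (0.95 to 9.59 TPM) lie below all glands (17.0 to 61.6 TPM) while the Trim24COE carcinomas (285 to 874 TPM) lie above them.

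The 10 genes made up 92.9% to 98.9% of all keratin TPM in every library. Their summed level was 634 and 1222 TPM in glands 133 and 392, 5166 and 5561 TPM in glands 417_3 and 517_3, and 362, 469 and 1423 TPM in carcinosarcomas 64, 567 and 897. It was 5499, 2494 and 6195 TPM in carcinomas 89, 273_5 and 3956, and 6077, 572 and 3340 TPM in tumors 219, FVB001 and FVB002. Carcinosarcomas 64 and 567 were below every gland, 897 lay between the fat-rich and the fat-poor glands, and carcinoma 3956 was above every gland.

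The make-up was different from tumor to tumor. Basal keratins were 11.1% to 39.2% of the summed level in glands. They were 60.4% in carcinoma 89, 3.65% in 273_5 and 0.727% in 3956. In carcinosarcomas they were 22.3% in 64, nearly all of it Krt14, 4.01% in 567 and 0.987% in 897. Carcinoma 89 was thus the tumor richest in basal keratins, 3956 the one with the smallest basal share, and 897 the carcinosarcoma with the least basal keratin. Krt6a, at most 0.296% in glands, carcinosarcomas and carcinoma 3956, was 12.9% in carcinoma 89, 5.08% in 273_5 and 5.62% to 9.60% in the non-TRIM24 tumors.

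**Figure D2:**
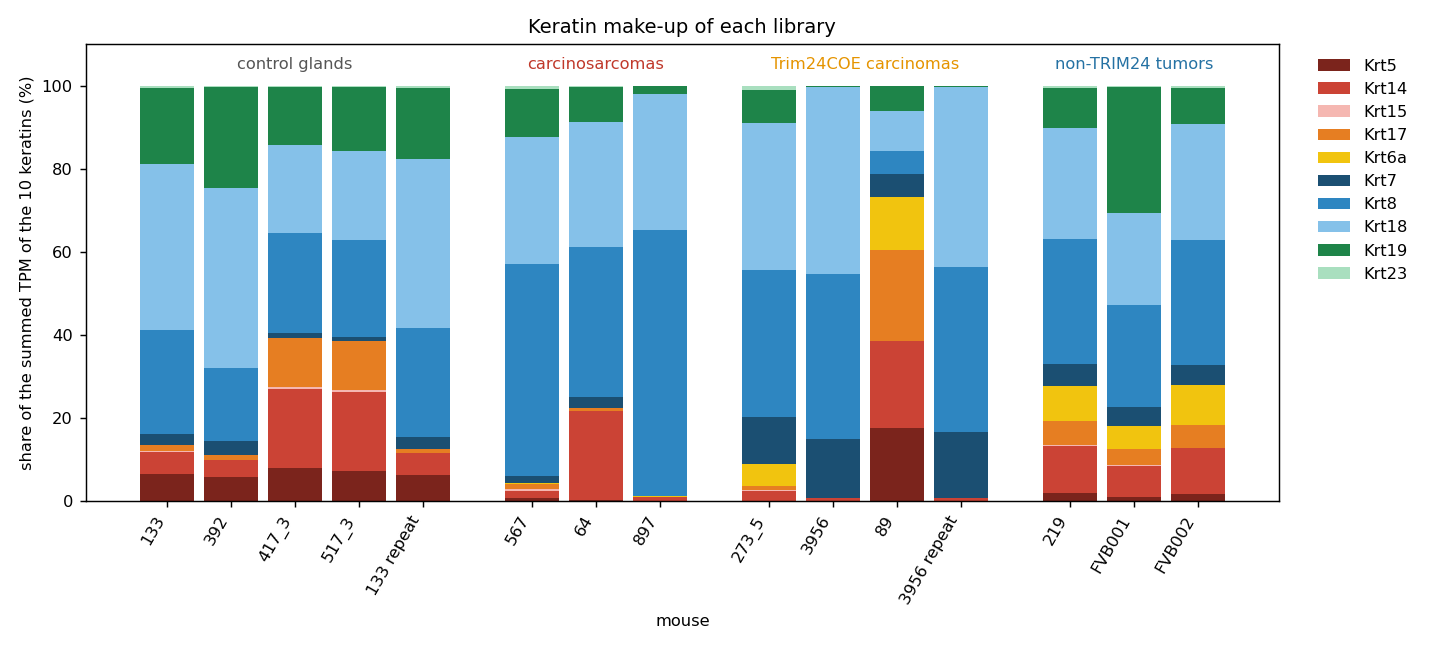
Share of each keratin in the summed TPM of the 10 genes, 1 bar per library, ordered by group. Carcinoma 89 has 60.4% basal keratins, carcinoma 3956 has 99.3% luminal keratins, and among the non-TRIM24 tumors FVB001 has the larger Krt19 share.

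The main comparison of the study set Trim24COE tumors against control glands. None of the 10 keratins passed the threshold (limma on log2(TPM + 1), adjusted p under 0.05), where 17.1% of 15196 genes tested did, and 2 of the 10 had an unadjusted p under 0.05. These were Krt19 (-2.50 ± 0.80 SE, adjusted p = 0.054) and Krt5 (-4.77 ± 1.71, adjusted p = 0.076). The median of the 10 log2 differences was -1.33 and that of all genes tested was -0.04. Its direction depended on the glands: it was 0.32 without the pair that held hair follicle RNA and -2.65 without the fat-rich pair. The 6 tumors spanned ranges of keratin that overlapped the glands for every gene, where 7.20% of genes tested were lower in all tumors than in all glands and 7.39% higher. Without carcinoma 89, which had 961 TPM of Krt5, both Krt5 (-6.27, adjusted p = 0.00058) and Krt19 (-2.95, adjusted p = 0.017) passed. Krt19 also passed without carcinoma 273_5 (adjusted p = 0.036) and without gland 133 (adjusted p = 0.035), and the range of its adjusted p over the 10 fits without 1 mouse was 0.017 to 0.14.

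Among the carcinosarcomas, 3 keratins of different layers fell against the glands: Krt5, the basal type II keratin, Krt19 and Krt7. They were 3 of the 9 keratins tested, beside 23.0% of all 15287 genes. Krt6a reached 1 TPM in 2 of the 7 libraries, where 3 were needed, and was not tested. The median log2 difference of the 9 was -2.85, against -0.12 over all genes. It was -1.03 without the glands that held hair follicle RNA (all genes 0.02) and -4.81 with an adipocyte covariate (all genes -0.31). Of the 9, 4 (Krt5, Krt7, Krt17 and Krt19) were lower in all 3 carcinosarcomas than in all 4 glands, which held for 21.6% of genes tested, and 0 were higher, which held for 15.4%.

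Krt5 was 40.8, 68.8, 409 and 392 TPM in glands 133, 392, 417_3 and 517_3, and 0.44, 3.57 and 0.22 TPM in carcinosarcomas 64, 567 and 897. It was highest in 567 among these tumors, and the groups did not overlap. The log2 difference was -6.20 ± 0.90 (SE, adjusted p = 0.0036, 73.5-fold lower), and it passed in each of the 7 fits without 1 mouse (adjusted p 0.0026 to 0.024).

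Krt19 was 117, 296, 721 and 856 TPM in the glands and 30.4, 53.8 and 28.9 TPM in the carcinosarcomas. The carcinosarcomas were close to each other and below the lowest gland. The log2 difference was -3.37 ± 0.67 (SE, adjusted p = 0.011, 10.3-fold lower), and without carcinosarcoma 64 it was -3.24 with an adjusted p of 0.055.

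Krt7 was 17.0, 41.1, 61.6 and 59.0 TPM in the glands and 9.59, 7.99 and 0.95 TPM in the carcinosarcomas. Carcinosarcoma 897 was the lowest. The log2 difference was -2.85 ± 0.67 (SE, adjusted p = 0.021, 7.20-fold lower), with adjusted p from 0.014 to 0.049 in the 7 fits without 1 mouse. Without both glands that held hair follicle RNA it was -2.27 (adjusted p = 0.080), and with no filter on low values the adjusted p was 0.073.

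The other keratins of this comparison did not pass. Krt14, the partner of Krt5, was 34.2, 50.7, 987 and 1064 TPM in the glands and 77.7, 7.92 and 11.97 TPM in carcinosarcomas 64, 567 and 897. Carcinosarcoma 64 was above the fat-rich glands, so the groups overlapped (-3.32 ± 1.40 SE, adjusted p = 0.12). Krt17, the other stress keratin, was 8.49, 14.8, 610 and 660 TPM in the glands and 2.78, 5.86 and 1.73 TPM in the carcinosarcomas (-4.41 ± 1.56, adjusted p = 0.076). The groups did not overlap, and the fat-poor glands stood far above the fat-rich glands. Without gland 133 it passed (adjusted p = 0.030), as did Krt18 and Krt23. The count was then 6 of 9 keratins, beside 3036 of 14760 genes. Without both fat-rich glands the count was 8 of 10 tested, beside 5837 of 15538 genes. The gland values beside these counts are those of fat, epithelial, myoepithelial and hair follicle RNA given above, and their part in the result was not tested.

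Krt8 and Krt18, the luminal pair, were above 100 TPM in all carcinosarcomas, and neither passed. Krt8 was 130, 239 and 914 TPM in 64, 567 and 897 and 158, 213, 1243 and 1291 TPM in the glands (-0.66 ± 0.95 SE, adjusted p = 0.65). Krt18 was 110, 144 and 463 TPM in these tumors and 253, 531, 1096 and 1197 TPM in the glands (-1.73 ± 0.67, adjusted p = 0.096). Both overlapped, and a failed test with 3 against 4 mice does not show that the levels were alike. Krt15 was 0.83, 1.14, 18.1 and 20.9 TPM in glands and 0 to 1.45 TPM in carcinosarcomas, and Krt23 was 3.72 to 20.1 TPM in glands and 1.12 to 4.19 TPM in carcinosarcomas.

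Other genes of the epithelial program were low in the carcinosarcomas. Of the 8 epithelial markers, 8 fell, among them Spint2, a membrane protease inhibitor (-4.85 ± 0.64 SE, adjusted p = 0.0025), the splicing regulator Esrp1 (-4.47 ± 0.59, adjusted p = 0.0025), the recycling GTPase Rab25 (-4.46 ± 0.66, adjusted p = 0.0039) and the claudin Cldn7 (-4.51 ± 0.69, adjusted p = 0.0043), all by limma. Carcinosarcoma 897 had 914 TPM of Krt8 beside 2.73 TPM of Epcam and 1.29 TPM of Cdh1. Relative to the epithelial markers of the same library (difference of log2 levels, chosen after the data were seen), Krt8 was 4.62, 4.20 and 8.66 in carcinosarcomas 64, 567 and 897, and 1.46, 1.59, 2.40 and 2.46 in the glands. The carcinosarcomas were the higher group without overlap (difference 3.85, exact permutation p = 0.029, two-sided, n = 3 and 4, the smallest this design can reach, adjusted p = 0.13 over 40 tests). For Krt18 the same quantity was 4.37, 3.47 and 7.68 against 2.13 to 2.91 (difference 2.77, exact permutation p = 0.029, adjusted p = 0.13). For Krt5 it was lower in the carcinosarcomas, -1.89, -1.52 and -0.89 against -0.47 to 0.79 in the glands (difference -1.69, exact permutation p = 0.057, adjusted p = 0.19). Krt19 and Krt7, which fell in TPM, were higher on this relative scale, without overlap: Krt19 was 2.78 ± 0.85 (SD, n = 3) against 1.64 ± 0.45 (SD, n = 4), a difference of 1.14 (exact permutation p = 0.029, adjusted p = 0.13). For Krt7 the means were 0.08 ± 0.80 and -1.58 ± 0.57 (difference 1.66, exact permutation p = 0.057, adjusted p = 0.19). Krt5 was thus the keratin of the 10 with a lower mean relative to the markers, and Krt15, Krt6a and Krt23 were higher without overlap. The markers had a mean log2 level of 1.17 to 3.71 in carcinosarcomas and 5.86 to 7.89 in glands. A gene of unchanged TPM is therefore higher on this scale. Krt6a, at 0.21 to 1.39 TPM in carcinosarcomas and 0.29 to 1.36 TPM in glands, differed by 4.39. The p-values on this scale thus do not show that a keratin rose, and the share of all genes higher on it was not computed. Where a level is near 1 TPM the pseudocount compresses such differences, so the values for Krt5, Krt6a, Krt15 and Krt23 are limited by it. The same holds for Krt7 in 897, at 0.95 TPM, and Krt15 was 0 TPM in 64 and 0.12 TPM in 897. In 897 the markers themselves ran from 0.19 TPM (Esrp1) to 4.80 TPM (Spint2), so all relative values of this tumor are limited too.

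**Figure D3:**
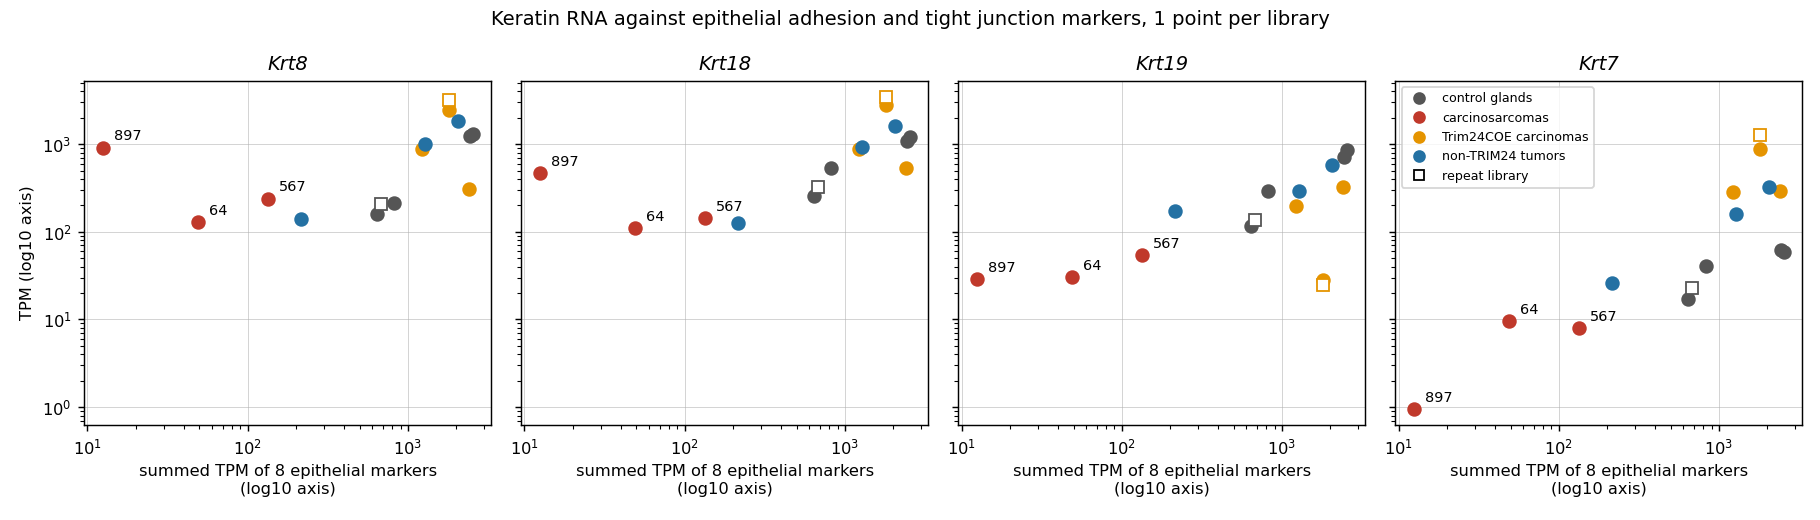
TPM of Krt8, Krt18, Krt19 and Krt7 against the summed TPM of 8 epithelial markers, both on log10 axes, 1 point per library. Carcinosarcoma 897, at 12.5 TPM of the markers, has 914 TPM of Krt8 and 463 TPM of Krt18 and 0.95 TPM of Krt7, and relative to the mean log2 level of these markers its Krt7 (-0.21) is above all 4 glands (-1.97 to -0.75), as its Krt8 is. Such relative values rise when the markers alone fall, and that of Krt7 is limited by the pseudocount.

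Part of the genes that anchor keratin filaments to cell contacts fell in carcinosarcomas. Of the 13 listed, 12 were tested and 7 fell, with a median of -1.80 over the 12. Plec, plectin, had a log2 difference of 0.74 ± 0.44 (SE, adjusted p = 0.26). Of the 7 that fell, the first 4 by p included the desmosome genes Pkp3, plakophilin 3 (-2.85 ± 0.41 SE, adjusted p = 0.0035), and Jup, plakoglobin (-2.07 ± 0.36, adjusted p = 0.0069). They also included Dsp, desmoplakin, which ties keratin to the desmosome (-3.23 ± 0.76, adjusted p = 0.021). The cornified envelope gene Evpl, envoplakin, fell too (-1.84 ± 0.41, adjusted p = 0.017). Dsp was 3.17 to 41.6 TPM in the glands and 0.32 to 0.60 TPM in the carcinosarcomas. Among 8 other intermediate filament genes tested, Vim, the filament of mesenchymal cells, rose (2.01 ± 0.32, adjusted p = 0.0052), from 413 to 765 TPM in the glands to 1583 to 2722 TPM. Nes, nestin, rose (3.58 ± 0.27, adjusted p = 0.00054) and Synm, synemin, fell (-2.90 ± 0.55, adjusted p = 0.0097).

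Regulators of epithelial lineage fell in 9 of 13 tested. The first 4 by p were Elf5, of luminal progenitors (-5.80 ± 0.63 SE, adjusted p = 0.0014), Foxa1, of hormone-sensing luminal cells (-3.93 ± 0.48, adjusted p = 0.0021), Ehf (-5.31 ± 0.68, adjusted p = 0.0023) and Tfap2c (-4.92 ± 0.64, adjusted p = 0.0023), by limma. Trp63, which encodes the basal regulator p63, is in that group and in the myoepithelial list (-2.40 ± 0.31, adjusted p = 0.0024), of which 4 of 7 fell. In the luminal mammary list 8 of 9 fell. Of 6 fibroblast markers 3 rose (the collagen genes Col1a1 and Col1a2, and Pdgfra), and the fibroblast list summed to 2053 to 7929 TPM in carcinosarcomas and 596 to 1480 TPM in glands. The part of stromal RNA in the keratin values was not tested.

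Trim24COE carcinomas showed one change of the keratins against the glands. Krt7 rose, 1 of 10 tested beside 3.50% of 15479 genes. It was 294, 285 and 874 TPM in carcinomas 89, 273_5 and 3956, and 1271 TPM in the repeat library of 3956. All 3 were above the highest gland, 61.6 TPM, which held for 10.7% of genes tested, and 0 keratins were lower without overlap, which also held for 10.7%. The log2 difference was 3.35 ± 0.56 (SE, limma adjusted p = 0.024, 10.2-fold higher), and an exact permutation test gave p = 0.029 (two-sided, n = 3 and 4, the smallest p possible). The size held without any 1 mouse (2.82 to 3.63), but the call did not: the adjusted p was 0.050 without 89, 0.051 without 273_5 and 0.073 without 3956, 0.055 without gland 417_3 and 0.058 without gland 517_3. It passed without gland 133 (0.027) or 392 (0.047).

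The 3 carcinomas did not share a basal keratin state. Krt5 was 961 TPM in 89 and 0.70 and 0.88 TPM in 273_5 and 3956, so 1 carcinoma was above every gland and the others below every gland (-3.34 ± 2.15 SE, adjusted p = 0.42). Krt14 was 1153, 58.8 and 34.2 TPM and Krt17 was 1203, 26.0 and 9.85 TPM in the same order. Without 89, Krt5 was -6.36 (adjusted p = 0.038). Krt19 was 323, 197 and 28.1 TPM, where 3956 was the lowest, below every gland. Krt8 was 307, 882 and 2469 TPM and Krt18 was 539, 887 and 2778 TPM, and for both 3956 was above every gland. Krt23 was 8.72, 25.5 and 1.21 TPM and Krt15 was 3.83, 5.45 and 0.13 TPM, and for both 3956 was below every gland.

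Krt6a was 0.29 to 1.36 TPM in the glands and 707, 127 and 0.39 TPM in carcinomas 89, 273_5 and 3956. It was high in 2 carcinomas and at gland level in the other (4.87 ± 1.79 SE, adjusted p = 0.17), and without 3956 it passed (7.46, adjusted p = 0.015). Of the other keratin genes 6 were tested and 0 passed, and those named next were chosen after their values were seen. Krt16, Krt6b and Krt79 were 253, 38.04 and 72.4 TPM in 89 and 9.66, 13.4 and 15.2 TPM in 273_5, so these were high in the same tumors as Krt6a. Krt27, a root sheath keratin, was 49.4 TPM in 3956, 69.3 TPM in its repeat and at most 2.01 TPM in every other library. Reads shared between Krt6a and Krt6b, and between Krt14, Krt16 and Krt17, can be split by the estimator.

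The 2 Trim24COE classes differed most in Krt7 among these keratins. It was lower in carcinosarcomas (0.95 to 9.59 TPM) than in carcinomas (285 to 874 TPM), 1 of 9 keratins called beside 0.698% of 14193 genes. The log2 difference was -6.20 ± 0.74 (SE, limma adjusted p = 0.020, 73.5-fold lower). An exact permutation test of 3 against 3 cannot go below p = 0.10, the value found for Krt7. Without 1 mouse the log2 difference stayed between -6.65 and -5.43, with adjusted p of 0.047 without 273_5, 0.027 without 3956 and 0.086 without 89, and it missed the threshold without any 1 carcinosarcoma (0.11 without 64, 0.059 without 567 and 0.058 without 897). Krt5 did not reach the filter here. The median log2 difference of the 9 tested was -2.49, against -0.10 for all genes, and it was -0.50 with an adipocyte covariate.

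Krt18 and Krt17 also did not overlap between the classes, 3 of 9 keratins with Krt7, where 14.4% of genes tested were lower in all carcinosarcomas and 7.33% higher. Krt18 was 110 to 463 TPM against 539 to 2778 TPM (-2.49 ± 0.74 SE, adjusted p = 0.22) and Krt17 was 1.73 to 5.86 TPM against 9.85 to 1203 TPM (-4.09 ± 1.61, adjusted p = 0.31). Krt6a had -4.98 ± 2.05 (adjusted p = 0.32). Without 3956, whose Krt19 and Krt6a were near the carcinosarcomas, 3 of 10 keratins tested passed, beside 293 of 14941 genes. The 3 were Krt7 (-5.67, adjusted p = 0.027), Krt6a (-7.57, adjusted p = 0.019) and Krt19 (-2.77, adjusted p = 0.029). Of 8 epithelial markers 5 fell in this comparison (Esrp1, Rab25, Spint2 and Cldn7 the first by p), of 10 keratin linkers 3 (Pkp3, -3.26 ± 0.36, adjusted p = 0.019, Dsp, -4.19 ± 0.52, adjusted p = 0.021, and Fam83h, -2.44 ± 0.37, adjusted p = 0.047), and of 13 lineage regulators 2, Grhl2 (-3.30 ± 0.29, adjusted p = 0.012) and Ovol2 (-1.99 ± 0.27, adjusted p = 0.034), which encode activators and keepers of the epithelial state.

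**Figure D4:**
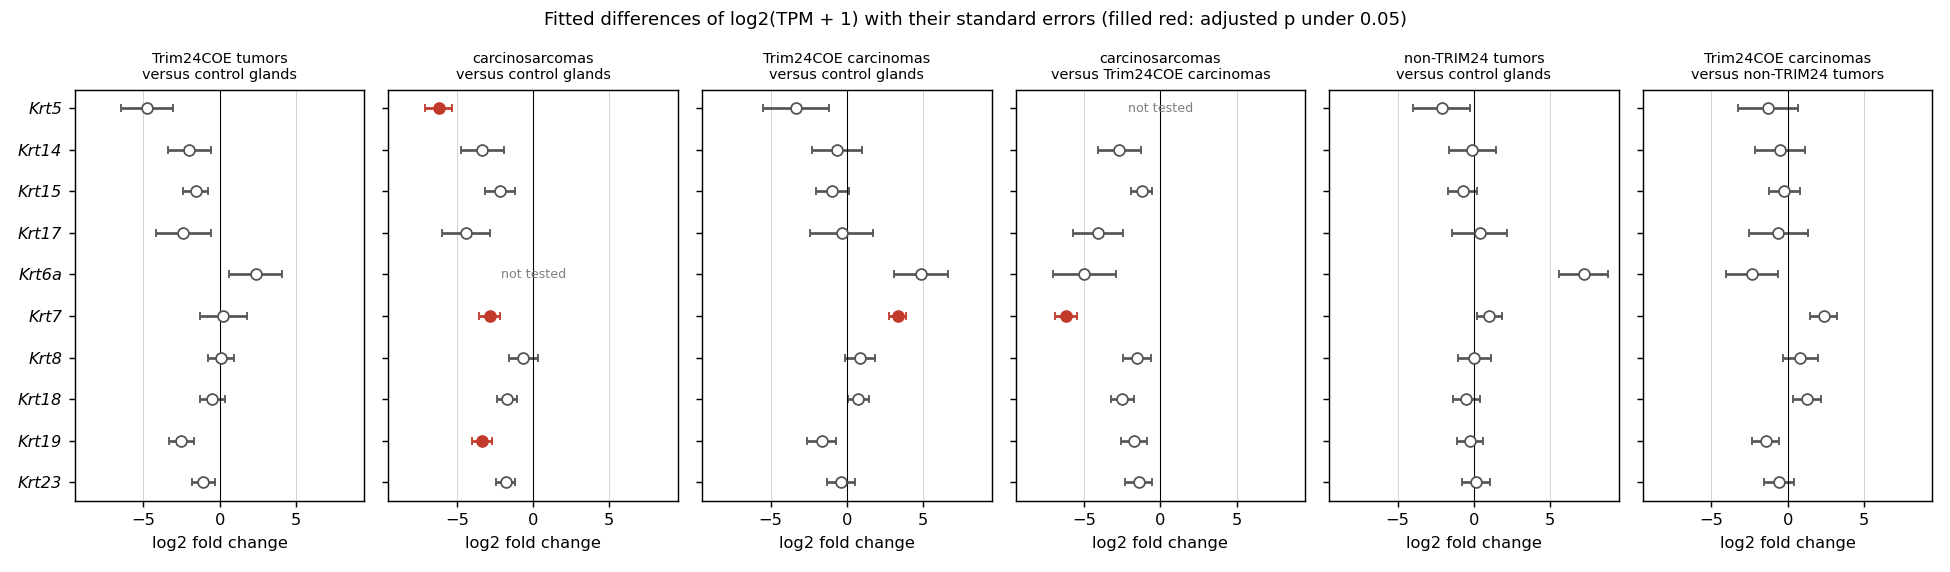
Fitted log2 differences of the 10 keratins in 6 comparisons, with standard errors. Filled red points have an adjusted p under 0.05: Krt5, Krt7 and Krt19 in carcinosarcomas against glands, and Krt7 in carcinomas against glands and in carcinosarcomas against carcinomas.

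In the order of group means of log2 level, Krt7 ran from Trim24COE carcinomas through non-TRIM24 tumors and glands to carcinosarcomas. Neighbours that did not pass were carcinomas and non-TRIM24 tumors (2.38 ± 0.89 SE, adjusted p = 0.22) and non-TRIM24 tumors and glands (1.01 ± 0.84, adjusted p = 0.52), both by limma with batch as a term and the mouse as a block. Krt8 kept the same order with Trim24COE carcinomas highest, and 0 of its differences passed.

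Non-TRIM24 tumors were compared with glands over all 15 libraries, with the batch term resting on the repeats of gland 133 and tumor 3956. In these repeats the 10 keratins shifted by a median of 0.26 and 0.25 on the log2 scale, over -0.46 to 0.54. None of the 10 passed, beside 0.709% of 16775 genes, and 1 had an unadjusted p under 0.05. This was Krt6a, at 503, 32.2 and 320 TPM in 219, FVB001 and FVB002, and at most 1.36 TPM in glands. All 3 tumors were above every gland, and the log2 difference was 7.19 ± 1.58 (SE, adjusted p = 0.062), or 8.40 without FVB001 (adjusted p = 0.041). Krt5 was 107, 5.66 and 53.3 TPM, Krt14 was 696, 42.5 and 368 TPM and Krt17 was 361, 22.2 and 187 TPM. For each of these, FVB001 was far below the others, and the range of 219 and FVB002 lay within that of the 4 glands. Krt8 was 1836, 141 and 1003 TPM and Krt18 was 1624, 126 and 933 TPM. Krt19 was 582, 173 and 291 TPM, Krt7 was 328, 26.1 and 160 TPM, Krt23 was 32.9, 2.63 and 20.9 TPM and Krt15 was 6.18, 0.49 and 2.98 TPM.

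Of the other keratin genes, 9 were tested against glands and 0 passed. Krt16, Krt6b and Krt79, named after their values were seen, were 242, 61.4 and 21.2 TPM in 219 and 157, 42.7 and 15.1 TPM in FVB002. Between Trim24COE carcinomas and non-TRIM24 tumors none of the 10 keratins passed, beside 0.0298% of 16775 genes, and 1 (Krt7) had an unadjusted p under 0.05. Krt6a had -2.33 ± 1.68 (SE, adjusted p = 0.46). Foxa1 was the only lineage regulator of 14 to fall in non-TRIM24 tumors against glands (-3.71 ± 0.52, adjusted p = 0.0096), and also fell in Trim24COE carcinomas against the same glands (-3.19 ± 0.55, adjusted p = 0.025). These 2 comparisons share the gland samples.

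Ratios within a library do not depend on the total. Krt14 over Krt5, which pair in basal cells, was 0.838, 0.737, 2.41 and 2.72 in glands 133, 392, 417_3 and 517_3, and 6.49, 7.51 and 6.89 in the non-TRIM24 tumors 219, FVB001 and FVB002. It was 1.20 in carcinoma 89 and 2.22 in carcinosarcoma 567. In the other 4 Trim24COE tumors it was 177 (64), 84.0 (273_5), 38.8 (3956) and 54.4 (897), where Krt5 was 0.22 to 0.88 TPM, and 58.0 in the repeat of 3956. In these 4 tumors Krt14 RNA was present with little Krt5 RNA, and Krt14 shares 14.4% of its 50-base stretches with Krt16 and Krt17. On the log2(TPM + 1) scale the mean was 3.30 ± 2.24 (SD, n = 6) in Trim24COE tumors and 0.51 ± 0.98 (SD, n = 4) in glands, a difference of 2.79 (exact permutation p = 0.057, two-sided, adjusted p = 0.23 over 20 tests).

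Type I over type II keratin was the ratio whose 6 Trim24COE tumors lay apart from the glands. Type I members were 65.8%, 73.6%, 66.8% and 68.7% of the summed level in the glands and 61.2%, 46.2% and 35.7% in carcinosarcomas 64, 567 and 897, then 58.7%, 48.1% and 46.0% in carcinomas 89, 273_5 and 3956. All 6 tumors were below all 4 glands. The log2 ratio was -0.04 ± 0.55 (SD, n = 6) against 1.14 ± 0.24 (SD, n = 4), a difference of -1.18 (exact permutation p = 0.0095, two-sided, adjusted p = 0.14). Non-TRIM24 tumors had 54.4%, 64.2% and 54.0%, of which all 3 were below the lowest gland as well, with no test. With the 20 ratio tests adjusted together, 0 passed.

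Krt18 over Krt8, the luminal pair, was 1.60, 2.50, 0.882 and 0.927 in the glands, 0.843, 0.600 and 0.507 in carcinosarcomas, 1.76, 1.01 and 1.13 in carcinomas and 0.885 to 0.931 in non-TRIM24 tumors. The carcinosarcomas were below all glands and below all carcinomas (log2 differences -1.08, exact permutation p = 0.11, and -0.98, exact permutation p = 0.10, both two-sided, adjusted p = 0.23). Krt8 values include reads of its pseudogene where these could not be told apart. Krt19 over Krt8 was 0.580 to 1.39 in the glands and 0.233, 0.225 and 0.0316 in carcinosarcomas 64, 567 and 897 (log2 difference -2.71, exact permutation p = 0.029, two-sided, adjusted p = 0.14). In the carcinomas it was 1.05, 0.224 and 0.0114, where 3956 was the lowest of all libraries, and 0.00767 in its repeat.

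**Figure D5:**
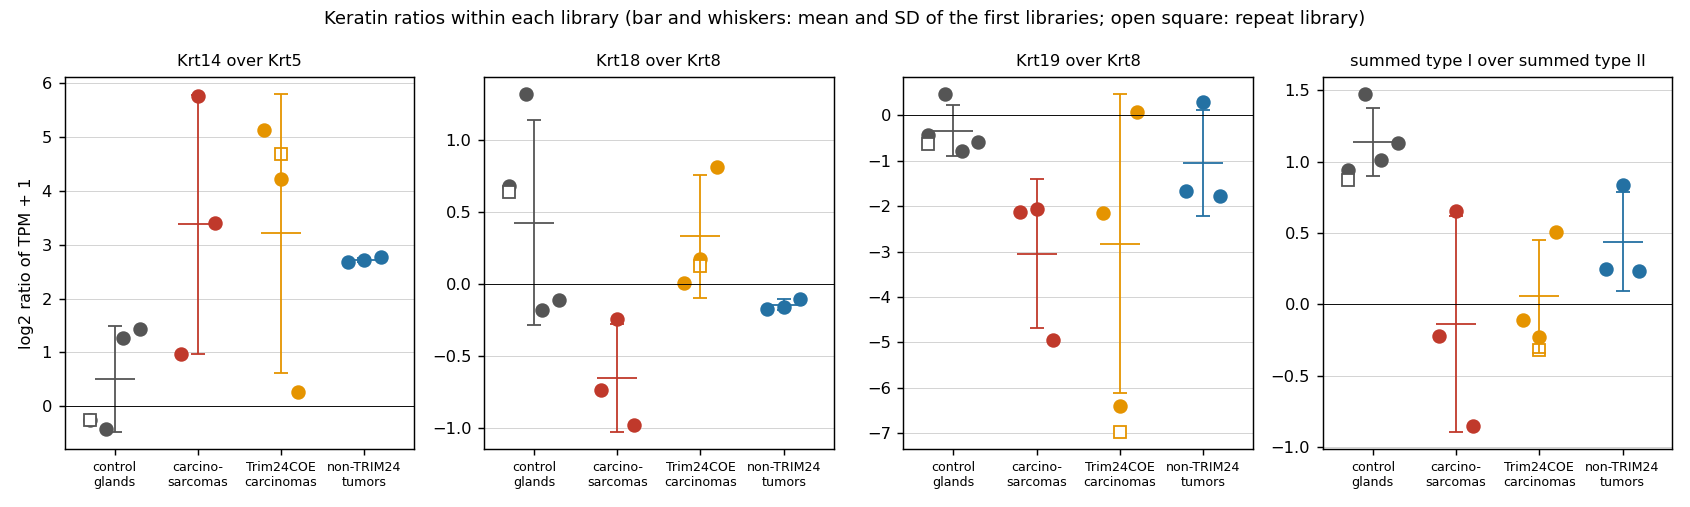
Log2 ratios of TPM + 1 within each library for Krt14 over Krt5, Krt18 over Krt8, Krt19 over Krt8 and summed type I over summed type II keratins, with mean and SD of the first libraries. For type I over type II the 4 glands (mean 1.14) lie above all 6 Trim24COE tumors (mean -0.04).

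Outside the keratins, the genes whose log2 level was most like the mean of Krt5 and Krt14 over the 10 first libraries of batch 1 (Pearson, 11394 genes of mean TPM at least 5) were Trim29 (r = 0.978), Plch2 (0.978), Col17a1 (0.972), Zfp750 (0.957) and Bhlhe41 (0.954). Trim29 ran from 0.10 to 49.1 TPM and Col17a1, a hemidesmosome collagen of basal cells, from 0.18 to 46.9 TPM. Most like the mean of Krt8 and Krt18 were Amd2 (0.917), Vezt (0.910), Ezr, the membrane linker ezrin (0.906), Arhgef5 (0.901) and Slc19a2 (0.896). These correlations were across 10 libraries that share the fat content of the glands and the split of the tumors, and are descriptions.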

How the data were processed

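RNA was measured in 15 libraries of 13 mice (TruSeq Stranded Total RNA). The deposited values are TPM, which the authors made with STAR and RSEM on GRCm38 with GENCODE M14 per their methods; the labels name TopHat and Cufflinks as well. The TPM of each library sum to the same total, so the files show no depth or counting error. Count-based tests, which the processing notes also name, need counts and were not used. Replicates are mice, and p-values judge a group difference against the spread between these samples.

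Groups were taken from the labels. limma 3.58.1 (R 4.3.3, lmFit and eBayes with a trend) was fitted to log2(TPM + 1), two-sided, with Benjamini-Hochberg adjustment over all genes tested (those that reached 1 TPM in at least n libraries, n being the number of mice in the smaller group). A log2 difference on this scale understates changes of low genes. Comparisons within batch 1 used first libraries of the groups compared. Those with non-TRIM24 tumors used all 15 libraries, batch as a term and the mouse as a block (duplicateCorrelation, statmod 1.5.0, correlation 0.951). Single values and ratios were compared by exact permutation of mice. Scripts were tested on simulated data. The promoters of the other keratins are not reported here.

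The keratins and lists were chosen with earlier results of these data known. Named beside the 10 keratins are listed genes past the threshold, up to 4 per direction by p, and the 5 genes most like each pair. Alternatives were pseudocount, filter, scaling, an adipocyte covariate, repeat libraries and leaving out each mouse. Levels relative to epithelial markers, and fits without a pair of control glands, were added after seeing the data.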

Additional observations from a re-analysis of the deposited data

Results flagged for a closer look

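Krt5 in carcinoma 89 stood far from the other Trim24COE tumors: its log2 level of 9.91 was separated from the next tumor by 0.802 of the range of the 6, above the critical value of the Dixon test for 6 samples. It was the 1 sample found in 30 groups of levels and ratios looked at, where chance gives about 1 in 20 groups. Krt7 changed in opposite directions against the glands in the carcinosarcomas and the Trim24COE carcinomas, and the difference between those changes was -6.20 on the log2 scale (limma adjusted p = 0.020).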

How the results depend on the processing

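Calls of the keratins rested on few mice. For Trim24COE tumors against glands the count of 0 became 1 with quantile normalization, with median-ratio scaling and in 1 fit with the 3 groups of batch 1 (Krt19 each time), 2 without the fat-rich glands (chosen after seeing the data), and 0 to 2 without 1 mouse. For carcinosarcomas against glands the count of 3 became 9 with the adipocyte covariate, beside 4813 of 15287 genes. It became 8 without the fat-rich glands, beside 5837 of 15538 genes. It was 2 with no filter or without the glands with hair follicle RNA (Krt7 lost), and 2 to 6 without 1 mouse. For Trim24COE carcinomas against glands the count of 1 became 0 with no filter, where 38798 genes were tested, and 0 to 1 without 1 mouse. The 1 gene was Krt7 without gland 133 or 392, but Krt5 (lower) without 89 and Krt6a (higher) without 3956. Krt7 thus passed in 2 of the 7 fits without 1 mouse. For carcinosarcomas against carcinomas it became 0 with no filter, 0 with the adipocyte covariate and 0 to 3 without 1 mouse. For non-TRIM24 tumors against glands the count of 0 became 1 (Krt6a) with a pseudocount of 0.1, with median-ratio scaling and without a batch term on first libraries, and 0 to 1 without 1 mouse. The other causes were not tested. The counts for Trim24COE carcinomas against non-TRIM24 tumors (0), ratios (0) and single levels (0) were the same under every alternative run, but with 3 or 4 mice a group these tests reach few small p-values. Of the log2 differences of keratins with an unadjusted p under 0.05 in the main fit, 0 reversed direction under the alternatives. The directions of the other keratin differences, which are smaller beside their errors, were not followed in this way. Medians over the keratins reversed in part, as given beside them.

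Counts over all genes moved further. In the order of the comparisons above, they were first 2597 (1009 with the adipocyte covariate) and 3511 (1345 to 3093 without 1 mouse, 1623 with no filter, 4813 with the covariate, 5837 without the fat-rich glands). Next came 542 (72 to 526 without 1 mouse, 46 with no filter, 1170 in 1 fit) and 99 (0 to 293 without 1 mouse, 0 with no filter or the covariate). Last were 119 (7 to 476 without 1 mouse, 18 without the block, 2330 without a batch term, 3350 without the fat-rich glands) and 5 (2 to 89 without 1 mouse, 1500 without a batch term). In carcinosarcomas against glands 42.8% of calls were higher, 56.1% with quantile normalization, which moved the median of all genes from -0.12 to 0.04, and in Trim24COE tumors 46.6% were higher, 35.4% with median-ratio scaling. For non-TRIM24 tumors the share was 28.6%, 41.4% with quantile normalization, 65.4% without FVB001 and 52.9% without 219. No paired analysis was possible because the labels number mice and give no numbers shared between groups. With gland 133 or tumor 3956 left out, the block correlation could not be estimated and the value of the full fit was kept.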
